A study of Mus musculus with 4 samples.

Results

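Mast cells and basophils are granule-bearing myeloid cells that carry the high-affinity receptor for IgE and release histamine, proteases and lipid mediators. The 7 genes described here are Gata2, a zinc finger transcription factor needed by blood stem cells and by mast cells and basophils, and 6 genes known as products of these cells. Mcpt8 encodes the serine protease by which mouse basophils are usually told from mast cells, and Cma1 encodes the chymase of connective tissue mast cells. Cpa3 encodes the carboxypeptidase stored in mast cell and basophil granules, Ms4a2 and Fcer1a the beta and alpha chains of the IgE receptor, and Hpgds the haematopoietic synthase of prostaglandin D2. The genes were taken by symbol, and all 7 were found in each library, among 28427 listed genes in periphery and 31053 in fetal liver.

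The cells came from C57BL/6J mouse embryos, in a study of how lymphoid tissue inducer (LTi) cells arise. From the embryonic periphery at E14.5 and E13.5 and from fetal liver at E14.5 and E13.5, live cells positive for CD45 and IL7Ra and negative for F4/80 were sorted after magnetic CD45 enrichment. There was 1 droplet library per tissue and stage, made with version 2 of the 10x Chromium 3' kit for periphery and version 3 for fetal liver. The gene lists used for counting also differed by tissue, with 27566 genes in both by Ensembl ID, as did the release of the counting software. Tissue cannot be told apart from kit, gene list or software release. No genotype or treatment was given, and which body parts made up the periphery or how many embryos were pooled is not given in the sources used here. With 1 library per group there was no replicate check and no test, and every interval printed covers counting error only. After filtering, 4166 to 10892 cells per library remained, with a median of 8457 to 18193 UMIs (counted molecules) per cell. The 2 periphery libraries shared 33 cell barcodes and the 2 fetal liver libraries 29. Shares of cells with a UMI depend on this depth, whereas levels are given as CPM (UMIs of a gene scaled to a common library total) and compared within a gene only. Shares are shares of the sorted cells, not of the tissue.

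On GRCm38 (the mm10 build of the deposited matrices), the GENCODE M21 annotation lists all 7 as protein-coding genes. Gata2 lies on chromosome 6 at chr6:88193891-88207032 on the plus strand, and Hpgds on the same chromosome at chr6:65117293-65144908 on the minus strand. Mcpt8 (chr14:56082166-56085273) and Cma1 (chr14:55941451-55944675) are members of the same chymase locus on chromosome 14, 137 kb apart on the minus strand, with 5 listed genes of the locus (Cma2, Mcpt1, Mcpt9, Mcpt2 and Mcpt4) starting between them. Because these proteases form a multigene family, UMIs of near-identical copies may have been split, and how shared reads were counted is not given in the sources used here. Cpa3 (chr3:20215620-20242181), Ms4a2 (chr19:11615523-11623719) and Fcer1a (chr1:173221284-173227214) are on the minus strand of their chromosomes.

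The 250 bases before the annotated start of 4 of the genes are printed because they hold the GATA letters bound by the family of Gata2, on GRCm38.p6 as given by RefSeq, in the direction of the gene. They cover chr19:11623720-11623969 for Ms4a2, chr3:20242182-20242431 for Cpa3, chr1:173227230-173227479 for Fcer1a and chr14:55944676-55944925 for Cma1, all on the minus strand. Capitals mark AGATAA and likewise AGATAG, or else TGATAA and likewise TGATAG, searched for on either strand.
Ms4a2 upstream window: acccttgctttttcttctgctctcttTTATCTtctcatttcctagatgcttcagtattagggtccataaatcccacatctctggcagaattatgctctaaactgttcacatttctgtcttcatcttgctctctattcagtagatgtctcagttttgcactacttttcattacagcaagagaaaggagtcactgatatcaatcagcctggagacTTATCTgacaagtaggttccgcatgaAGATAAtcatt
Cpa3 upstream window: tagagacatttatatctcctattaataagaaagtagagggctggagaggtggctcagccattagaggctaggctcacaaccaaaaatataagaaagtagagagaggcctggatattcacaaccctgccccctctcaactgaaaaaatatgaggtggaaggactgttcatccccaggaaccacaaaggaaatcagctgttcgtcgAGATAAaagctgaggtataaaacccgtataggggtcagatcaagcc
Fcer1a upstream window: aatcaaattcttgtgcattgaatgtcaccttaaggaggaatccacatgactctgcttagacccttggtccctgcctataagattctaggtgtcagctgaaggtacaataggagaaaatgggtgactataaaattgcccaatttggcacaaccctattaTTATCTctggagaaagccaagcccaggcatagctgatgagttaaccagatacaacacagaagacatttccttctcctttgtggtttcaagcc
Cma1 upstream window: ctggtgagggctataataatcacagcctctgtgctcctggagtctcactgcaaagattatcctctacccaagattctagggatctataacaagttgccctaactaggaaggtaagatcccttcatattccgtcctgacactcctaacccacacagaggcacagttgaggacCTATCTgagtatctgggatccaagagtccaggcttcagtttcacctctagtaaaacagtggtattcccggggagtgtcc
Ms4a2 held 3 matches, the nearest 11 bases before the start, and Cpa3, Fcer1a and Cma1 held 1 each, beginning 46, 92 and 79 bases before the start. The windows of Gata2 (2 annotated starts), Mcpt8 and Hpgds held none. Of all 32851 windows of the same length in the RefSeq table, 26.5% held at least 1 match. These letters were counted in sequence only, and binding was not measured.

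Across all kept cells, more of the 7 genes passed 2-fold between stages in fetal liver than in periphery, while Hpgds had its wider stage difference in periphery. Cma1 passed only in periphery and was under 10 CPM in both fetal liver libraries. Its plain CPM ratio of E14.5 over E13.5 was 9.68 in fetal liver and 8.56 in periphery. The plot of levels by library shows the 4 values of each gene side by side. Gata2 stood at 46.0 CPM in fetal liver at E14.5, against 12.3 CPM at E13.5. Mcpt8 stood at 70.1 CPM at E14.5, against 3.26 CPM at E13.5, the widest gap of the 7 between these libraries. Cpa3 had 122 CPM at E14.5, against 36.4 CPM at E13.5, and Ms4a2 had 26.4 CPM at E14.5, against 4.03 CPM at E13.5. Hpgds went the other way, with 7.19 CPM at E14.5, against 24.8 CPM at E13.5. Fold changes are log2 ratios of CPM plus 5, minus the median of all genes with at least 10 CPM in either library, and a value of at least 1 in size (2-fold) was called. The median taken off was -0.03 between stages in fetal liver and 0.23 in periphery, and -0.17 at E14.5 and -0.41 at E13.5 between tissues. On this scale 4 of the 7 genes rose in fetal liver, where 1.3% of the 7746 measured genes did so. Their fold changes were 3.22 for Mcpt8, 1.83 for Ms4a2, 1.65 for Cpa3 and 1.59 for Gata2. Hpgds fell by 1.26, which 0.31% of measured genes did by 2-fold or more, so 5 of 7 stand against a background of 1.61% in either direction. With a pseudocount of 10 CPM Hpgds stood at -0.99, just short of 2-fold. Fcer1a (4.28 CPM at E14.5, against 1.05 CPM at E13.5) and Cma1 (0.578 CPM at E14.5, against 0.0597 CPM at E13.5) stayed under 10 CPM in both libraries and were not called.

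**Figure D1:**
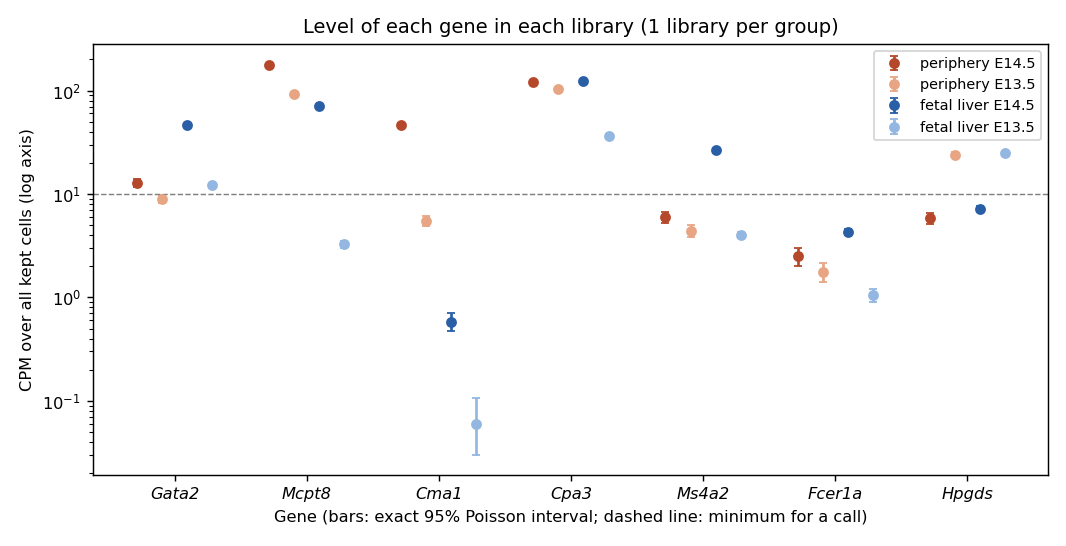
CPM over all kept cells (log axis) for each of the 7 genes in the 4 libraries, with exact 95% Poisson intervals as bars and a dashed line at 10 CPM, the minimum for a call. In fetal liver Mcpt8 stands at 70.1 CPM at E14.5 and at 3.26 CPM at E13.5, while Cma1 reaches 10 CPM only in periphery at E14.5.

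In periphery, 1 gene rose and 1 fell with stage. Cma1 had 46.9 CPM at E14.5, against 5.48 CPM at E13.5, a fold change of 2.08, where 1.45% of the 7241 measured genes were higher by 2-fold. Hpgds had 5.83 CPM at E14.5, against 23.95 CPM at E13.5, and fell by 1.65, where 2.28% of measured genes were lower by 2-fold and 3.73% passed in either direction. Mcpt8 had 178 CPM at E14.5 and 92.2 CPM at E13.5 (fold change 0.69, interval 0.62 to 0.76), which was not past 2-fold, but reached 1.30 with the mean of per-cell CPM. Cpa3 had 121 and 103 CPM at E14.5 and E13.5, and Gata2 12.8 and 8.92 CPM, with intervals of both fold changes spanning 0. Ms4a2 (5.93 CPM at E14.5 and 4.35 CPM at E13.5) and Fcer1a (2.49 CPM at E14.5 and 1.76 CPM at E13.5) were under 10 CPM.

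Between tissues at E14.5, Cma1 (3.39) and Mcpt8 (1.45) were higher in periphery, and Gata2 (-1.35) and Ms4a2 (-1.35) were lower in periphery than in fetal liver. Of all 8119 measured genes, 12.2% were higher and 11.4% lower by 2-fold, so 4 of 7 stands against a background of 23.6%. The Mcpt8 call was lost with the mean of per-cell CPM (0.75), and Cma1 was 1.80 without the 3 cells richest in it in each library. Other Cma1-rich periphery cells stayed in, as 6 cells there had at least 10 Cma1 UMIs. At E13.5, Mcpt8 (3.97) and Cpa3 (1.79) were higher in periphery, with 12.6% of 7986 genes higher by 2-fold, 10.5% lower and 23.1% in either direction. None of the 7 was called lower at E13.5, where Gata2 (0.10) and Hpgds (0.37) did not pass 2-fold. Cpa3 at E14.5 differed little between tissues (0.15, interval 0.10 to 0.21).

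The single cells showed where these molecules sat. Cells of each tissue were grouped by expression with the 7 genes left out of the clustering. In both tissues most UMIs of 5 of the genes (Gata2, Mcpt8, Cpa3, Ms4a2 and Fcer1a) came from 1 small cluster, P12 in periphery and FL10 in fetal liver, with Cpa3 in periphery at E13.5 just below that share at 48.1%. FL10 held 6.60% of kept cells at E14.5 (719 cells) and 1.16% at E13.5 (113 cells). P12 held 1.41% at E14.5 (61 cells) and 1.34% at E13.5 (56 cells). Both clusters detected 9 of 10 basophil markers and 4 of 11 mast cell markers at 20 CPM or more, and are called basophil-like. The 11 mast cell markers summed to 4821 CPM in P12 at E14.5 and 3794 CPM at E13.5, and to 2396 CPM in FL10 at E14.5 and 2727 CPM at E13.5, against 28.1 to 46.0 CPM per library in cells outside these clusters and outside P10.6, P13 and FL17, small groups that also hold these markers (4523 CPM in P10.6, 2957 CPM in P13 and, in 1 cell, 4950.0 CPM in FL17 at E14.5, and 858 CPM in P10.6 and 574 CPM in FL17 at E13.5). Hdc, which is on both marker lists, was the largest part of these sums in P12 and FL10. It stood at 3671 CPM in P12 at E14.5 and 2994 CPM at E13.5, and in FL10 at 1586 and 2231 CPM. The 10 basophil markers summed to 10550 CPM in P12 at E14.5 and 9407 CPM at E13.5. In FL10 they summed to 6910 CPM at E14.5 and 6428 CPM at E13.5. Outside these clusters and small groups they summed to 145 to 947 CPM per library. Leading genes of P12 and FL10 included Prss34, a basophil protease, Cd200r3, a surface receptor of these cells, and Hdc, the enzyme that makes histamine. The mast cell tryptase Tpsab1 was at 0 in both clusters at both stages, and Tpsb2 and Mcpt4 were at 0 or 1 UMI in each. Transcripts of the sorted surface proteins were present in FL10 at E14.5, with Il7r at 148 CPM and Ptprc, the gene of CD45, at 162 CPM. Adgre1, the gene of F4/80, which the sort selected against, stood at 71.9 CPM in FL10 at E14.5 and 77.4 CPM at E13.5, against 0.541 and 1.38 CPM in cells outside FL10 and the small cluster FL17 at E14.5 and E13.5. In P12 Adgre1 stood at 108 CPM at E14.5 and 58.7 CPM at E13.5.

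At E14.5 FL10 held 96.5% of Gata2, 97.6% of Mcpt8, 91.1% of Cpa3, 98.4% of Ms4a2 and 98.5% of Fcer1a UMIs of fetal liver, and 0.383% of Hpgds UMIs. At E13.5 it held 96.8% of Mcpt8, 98.0% of Ms4a2 and 90.2% of Fcer1a UMIs, but 63.6% of Gata2 and 52.2% of Cpa3 UMIs. In periphery P12 held 93.9% of Mcpt8 UMIs at E14.5 and 98.7% at E13.5, and 88.5% and 83.6% of Gata2 UMIs at E14.5 and E13.5. Cma1 was the exception there, with 1.07% of its UMIs in P12 at E14.5 and 7.94% at E13.5. The plot of UMI shares by cluster shows the 3 patterns: a basophil-like set, Cma1 in another small group of periphery cells, and Hpgds outside both.

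**Figure D2:**
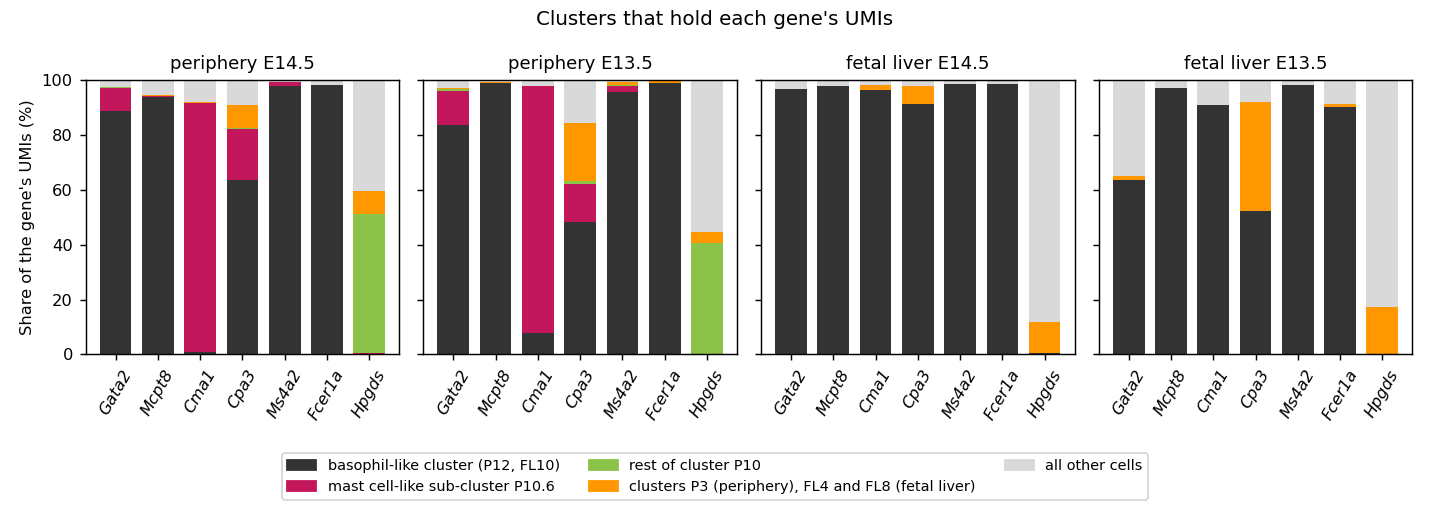
Share of each gene's UMIs (percent, stacked to 100) held by the basophil-like cluster, the mast cell-like sub-cluster P10.6, the rest of cluster P10, the clusters P3 (periphery) or FL4 and FL8 (fetal liver) and all other cells, 1 panel per library. The basophil-like cluster holds 98.5% of Fcer1a UMIs in fetal liver at E14.5 and none of the Hpgds UMIs in either periphery library.

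Within the basophil-like cluster of fetal liver, Mcpt8 was the only 1 of the 7 genes past 2-fold between stages. It had 1596 CPM at E14.5, against 360 CPM at E13.5 (fold change 2.15, interval 2.01 to 2.29), and 0.556% of the 7557 genes measured there were higher by 2-fold, 0.344% lower and 0.9% in either direction. Mcpt8 was seen in 87.6% of FL10 cells at E14.5, against 51.3% at E13.5. With every cell thinned to 5000 UMIs the shares were 83.6% of 629 cells at E14.5, against 43.9% of 107 cells at E13.5, and the gap stayed at equal depth. The fold changes of the other genes did not pass 2-fold between stages in these cells. Gata2 had 1036 CPM at E14.5 and 893 CPM at E13.5, Cpa3 2600.1 and 2172 CPM, and Ms4a2 605 and 450.3 CPM at E14.5 and E13.5. Fcer1a had 98.2 CPM at E14.5 and 108 CPM at E13.5, with an interval of the fold change from -0.41 to 0.20. Cma1 had 12.97 CPM at E14.5, against 6.19 CPM at E13.5 (101 and 10 UMIs at E14.5 and E13.5), a fold change of 0.70 with a wide interval from -0.06 to 1.40. The fold changes of Gata2 (0.23), Cpa3 (0.28) and Ms4a2 (0.44) within FL10 stood under the 1.59, 1.65 and 1.83 over all cells, while the share of cells in FL10 was 6.60% at E14.5, against 1.16% at E13.5.

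Cells of P12 had 7625 CPM of Mcpt8 at E14.5 and 4501 CPM at E13.5 (fold change 0.65). No gene of the 7 passed 2-fold between stages in P12, where 3.1% of 6521 measured genes were higher, 2.48% lower and 5.58% either. Gata2 had 518 CPM at E14.5 and 369 CPM at E13.5, and Cpa3 had 3513 CPM at E14.5 and 2445 CPM at E13.5. Set against FL10, Mcpt8 was higher in P12 at both stages (2.52 at E14.5 and 4.03 at E13.5), where 7.31% of 7521 genes at E14.5 and 8.9% of 7401 genes at E13.5 were higher by 2-fold. Lower by 2-fold were 12% at E14.5 and 12.1% at E13.5, and 19.3% and 21% passed in either direction at E14.5 and E13.5. Cma1 was also higher in P12 at E13.5 (1.65, interval 0.58 to 2.64), which rests on 22 UMIs in P12 and 10 UMIs in FL10. Gata2 (-0.72 at E14.5 and -0.86 at E13.5) and Ms4a2 (-0.91 at E14.5 and -0.71 at E13.5) were not past 2-fold. These calls rest on the medians taken off, which were -0.27 at E14.5 and -0.41 at E13.5 between the clusters of the 2 tissues. Before that step Gata2 stood at -0.99 at E14.5 and -1.26 at E13.5, and Ms4a2 at -1.18 at E14.5 and -1.11 at E13.5. Between stages the medians were -0.02 in FL10 and 0.11 in P12. The plot of levels within the basophil-like clusters shows that Mcpt8 stood in the order periphery E14.5, periphery E13.5, fetal liver E14.5, fetal liver E13.5, with no overlap of counting intervals, while Fcer1a intervals overlapped in all 4 libraries.

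**Figure D3:**
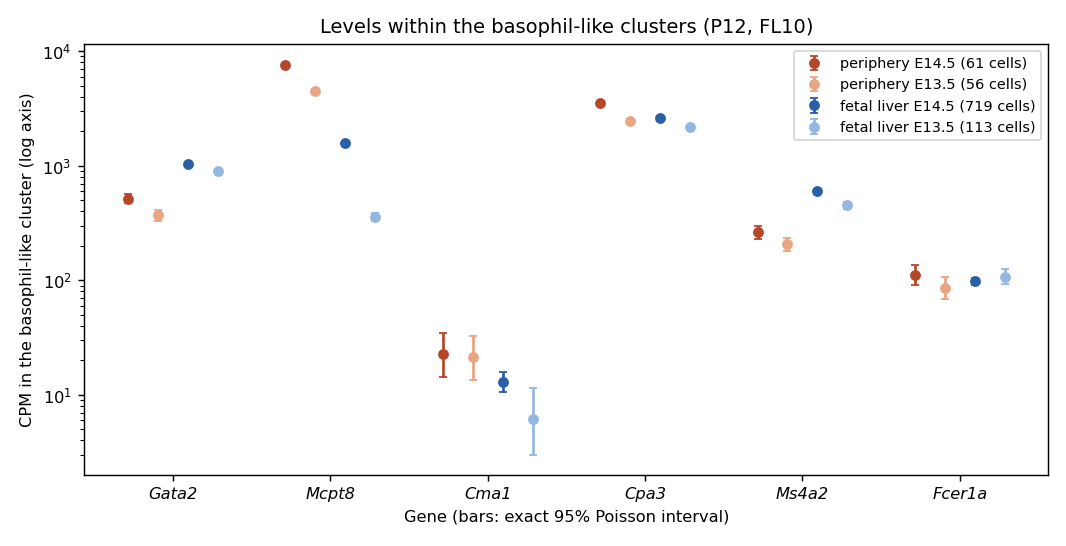
CPM (log axis) of 6 of the genes within the basophil-like clusters P12 and FL10, with exact 95% Poisson intervals, for 61, 56, 719 and 113 cells. Mcpt8 spans 360 to 7625 CPM over the 4 libraries, and Fcer1a 86.1 to 111 CPM.

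In single cells of FL10 at E14.5 the median was 10 UMIs of Gata2, 11 of Mcpt8, 24 of Cpa3 and 5 of Ms4a2, and the highest cell had 108 UMIs of Mcpt8. At E13.5 the medians in FL10 were 11 for Gata2, 1 for Mcpt8, 26 for Cpa3 and 6 for Ms4a2. In P12 the median for Mcpt8 was 74 UMIs at E14.5 and 31 at E13.5, and the highest cells had 602 and 547 UMIs at E14.5 and E13.5. Some P12 cells had no Mcpt8 UMI at all: it was seen in 90.2% of cells at E14.5 and 76.8% at E13.5, while Gata2 was seen in 98.4% and 100% of P12 cells at E14.5 and E13.5. Fcer1a was seen in 40.6% of FL10 cells at E14.5 and 49.6% at E13.5, a gene whose UMI counts were low in every library.

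The 7 genes met in few cells. At least 3 of them had a UMI in 1.62% of periphery cells at E14.5 (70 cells) and 1.44% at E13.5 (60 cells), and in 6.48% of fetal liver cells at E14.5 (706 cells) and 1.23% at E13.5 (120 cells). Of these, 57, 52, 696 and 108 cells were in the basophil-like cluster, in the same library order. At no more than 5% mitochondrial UMIs the fetal liver share at E13.5 was 1.99% (84 of 4217 cells). No cell held all 7, which leaves an upper bound of 0.0339% in fetal liver at E14.5. Of fetal liver cells with Gata2 at E14.5, 70.0% also had Ms4a2 and 66.3% had Mcpt8, against 0.765% and 2.87% of cells without Gata2. At E13.5, 17.6% of Gata2 cells had Ms4a2 and 9.29% had Mcpt8, against 0.0874% and 0.186% of cells without Gata2. The plot of cells by number of genes shows fetal liver at E14.5 above the other 3 libraries from at least 2 genes up.

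**Figure D4:**
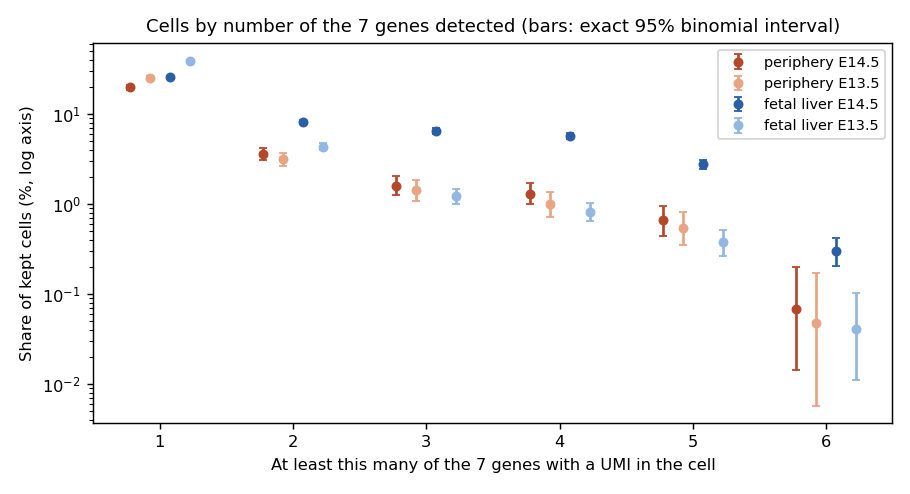
Share of kept cells (percent, log axis) with a UMI of at least 1 to 6 of the 7 genes, with exact 95% binomial intervals, in the 4 libraries. At least 3 genes were seen in 6.48% of fetal liver cells at E14.5 and in 1.23 to 1.62% of cells of the other 3 libraries (1.99% for fetal liver at E13.5 at no more than 5% mitochondrial UMIs).

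Cma1 in periphery came from a handful of cells. In cluster P10, whose leading genes (haemoglobins, C1q, S100a8) belong to several cell types, a sub-cluster of 20 cells (P10.6, 10 at each stage) held 90.3% of Cma1 UMIs at E14.5 and 89.9% at E13.5. The marker rule names P10 erythroid-like as a whole, a name set aside here because of those mixed leading genes. P10 was split after the data had been seen, because it held most Cma1. P10.6 had 16028 CPM of Cma1 at E14.5, against 1379 CPM at E13.5, with UMIs in 6 of 10 cells at E14.5 and in 3 of 10 at E13.5. Its leading genes were the tryptases Tpsb2 and Tpsg1 and the mast cell proteases Mcpt1 and Mcpt2, and it is called mast cell-like. Tpsb2 was seen in 4 of its 10 cells at E14.5 and 2 of 10 at E13.5, and Mcpt1 in 1 cell at E14.5 and in none at E13.5. Mcpt2 was seen in 1 cell at each stage, and Tpsg1 in 6 cells at E14.5 and 1 at E13.5. P10.6 detected 8 of 11 mast cell markers over both stages, 9 at E14.5 and 6 at E13.5, beside 7 of 10 basophil markers. The basophil markers summed to 4604 CPM there at E14.5 and 1805 CPM at E13.5, above the mast cell markers at 4523 and 858 CPM. The name rests on the leading genes and on the markers over both stages. Cpa3 reached 8512 CPM in these cells at E14.5 and 4031 CPM at E13.5, and Gata2 407 CPM at E14.5 and 305 CPM at E13.5. Fcer1a had no UMI there, and Mcpt8 had 22 UMIs at E14.5 and 0 at E13.5. The top 3 cells held 74.3% of all Cma1 UMIs at E14.5 and 91.7% at E13.5, with up to 568 UMIs in a cell at E14.5 and 144 at E13.5. Without these 3 cells in each library Cma1 had 12.1 CPM at E14.5, against 0.455 CPM at E13.5, and its fold change was 1.42, against 2.08 with them. That removal took a larger share of Cma1 UMIs at E13.5 than at E14.5, and left Cma1-rich cells in at E14.5. Another 175 periphery cells at E14.5, against 10 at E13.5, had exactly 1 Cma1 UMI. Cma1 stood at 4.68 CPM in the LTi-like cluster P0 and 4.42 CPM in the LTi-like cluster P1 at E14.5, and the part of RNA released from other cells in these low levels was not tested. In fetal liver Cma1 had 105 UMIs in all at E14.5 and 11 at E13.5, of which FL10 held 96.2% at E14.5 and 90.9% at E13.5.

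Cpa3 was also found outside the basophil-like clusters, in cells where its partners were near 0. The innate lymphoid progenitor-like cluster FL4 had 100.1 CPM of Cpa3 at E14.5 and 98.7 CPM at E13.5, and FL8, of the same name, 79.8 CPM at E14.5 and 107.5 CPM at E13.5. In the periphery the unnamed cluster P3, led by Ccl5, Cd3g and Klrd1, had 125 CPM at E14.5 and 161 CPM at E13.5, with Cpa3 in 28.9% of its cells at E14.5 and 36.5% at E13.5. Gata2 stood at 1.65 CPM in FL4 at E14.5 and 1.28 CPM at E13.5, and Ms4a2 had 1 UMI there at E14.5 and 0 at E13.5. The B lineage-like cells of cluster FL0, which should lack these genes, had 1.80 CPM of Cpa3 and 1.08 CPM of Gata2 at E14.5 (2856 cells, median 16073.5 UMIs, against 20317.5 UMIs in FL4). Gata2 in FL4 was near that background and Cpa3 well above it. Of cells with at least 5 Cpa3 UMIs, those with neither Gata2 nor Ms4a2 made up 43 of 106 in periphery at E14.5 and 115 of 175 at E13.5, and 96 of 740 in fetal liver at E14.5 and 148 of 275 at E13.5.

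Gata2 was also seen at low levels in other fetal liver cells. Outside FL10 it had 1.66 CPM at E14.5, against 4.51 CPM at E13.5, the opposite order to the whole library. The E13.5 value includes the cluster FL17, described below. It also includes the shallow cluster FL12, with 14.2 CPM at E14.5 and 25.2 CPM at E13.5. In the B lineage-like cluster FL0 Gata2 had 1.08 CPM at E14.5. In the stem and multipotent progenitor-like cluster FL3 (Hoxa9, Hlf and Adgrl4 among its leading genes) Gata2 stood at 2.94 CPM at E14.5, with UMIs in 6.51% of 307 cells, and at 7.80 CPM at E13.5, with UMIs in 13.7% of 1408 cells. The neutrophil lineage-like cluster FL15 had 8.94 CPM of Gata2 at E14.5 and 15.6 CPM at E13.5. A cluster of 27 cells, FL17, all but 1 from E13.5 and led by Slc45a3, Gzmb, Itga2b and Gata1, had 571 CPM of Gata2 and 632 CPM of Cpa3 at E13.5, with no Mcpt8 or Fcer1a UMI. Over both stages it detected 9 of 10 basophil, 4 of 11 mast cell and 5 of 8 megakaryocyte markers. In its 26 cells at E13.5 alone, 7 of 10 basophil and 3 of 11 mast cell markers reached 20 CPM, and Prss34 was at 0. The marker rule names it megakaryocyte-like, a name set aside here because over both stages it held more basophil than megakaryocyte markers. Megakaryocyte markers were not counted by stage. A shallow cluster of 38 periphery cells at E14.5, P13 (median 982.5 UMIs), had 5358 CPM of Mcpt8 and 734 CPM of Cpa3 and was left unnamed.

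Hpgds did not go with the other 6 genes. FL10 had 5 Hpgds UMIs at E14.5 and 2 at E13.5. P12 had none at either stage, where 3 counts would make 3.27 CPM at E14.5 and 2.93 CPM at E13.5. In fetal liver it was spread over many clusters, among them the unnamed FL13 (led by Nrp1, Id2 and Batf3) and FL11 (led by Cavin2, Cd74 and Pira2). FL13 had 36.6 CPM of Hpgds at E14.5 and 55.3 CPM at E13.5, and FL11 had 23.0 CPM at E14.5 and 45.0 CPM at E13.5. Cells with a UMI made up 10.0% of fetal liver at E14.5, against 31.0% at E13.5, and after thinning to 5000 UMIs 3.08% at E14.5, against 10.8% at E13.5. In periphery the unnamed cluster P10 held 51.2% of Hpgds UMIs at E14.5 and 40.5% at E13.5. Its monocyte or macrophage-like sub-cluster P10.3 had 390.1 CPM at E14.5 (24 cells) and 314 CPM at E13.5 (27 cells). The lymphoid progenitor-like cluster P6, which had 29 cells at E14.5 and 611 at E13.5, had 12.6 CPM of Hpgds at E14.5 and 41.4 CPM at E13.5.

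The B lineage-like cluster FL0 gives the level of these genes in cells that should lack them. At E14.5 it had 0.104% of the FL10 level for Gata2, 0.115% for Mcpt8, 0.0691% for Cpa3, 0.0776% for Ms4a2 and 0.0623% for Fcer1a. At E13.5, with 77 cells in FL0, against 2856 at E14.5, none of these 5 genes had a UMI there. With so few cells the absence cannot show a lower background than at E14.5. Outside FL10 Mcpt8 had 1.77 CPM at E14.5 and 0.104 CPM at E13.5.

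The genes around these 7 were taken from 6 lists. Their counts stand beside the shares of all measured genes given above, which over all cells were 1.3% higher and 0.31% lower in fetal liver and 1.45% higher and 2.28% lower in periphery between stages. Over all cells of fetal liver, between stages, none of 12 measured Fc receptor signalling genes passed 2-fold, 2 of 4 granule and amine genes were higher (Prss34 2.72 and Hdc 1.23) and 2 of 5 eicosanoid genes lower (Ptgs1 -1.17 and Hpgd -1.09). Of 6 receptor and cytokine genes 2 were higher (Cd200r3 1.77 and Csf1 1.29), of 13 transcription factors 1 was lower (Lmo2 -1.07), and of 2 chymase locus genes Mcpt8 alone was higher. In periphery 1 of 11 Fc receptor signalling genes (Lat2 -1.10), 1 of 8 receptor and cytokine genes (Il13 -1.20) and Spi1 (-1.83) of 10 transcription factors were lower, Bhlhe40 (1.19) and Cma1 were higher, and no granule or eicosanoid gene passed. The lists were then compared within the basophil-like clusters, where between stages 0.556% of all measured genes were higher and 0.344% lower in FL10, and 3.1% higher and 2.48% lower in P12. Between tissues 7.31% were higher and 12% lower in P12 than in FL10 at E14.5, and 8.9% higher and 12.1% lower at E13.5. Of 13 Fc receptor signalling genes, 12 were measured in FL10 and none passed 2-fold between stages. Fcer1g, the gamma chain that the IgE receptor shares with other Fc receptors, had 2145 CPM in FL10 at E14.5 and 1927 CPM at E13.5. Lat2 had 276 CPM at E14.5 and 314 CPM at E13.5, and Lat, another adaptor of the receptor, 152 CPM at E14.5 and 166 CPM at E13.5. In periphery over fetal liver at E14.5 Lat (1.88) and Lat2 (1.28) were higher and Fyn (-1.95) lower within these clusters. Of 14 granule and amine genes, 7 were measured in FL10, where Prss34 rose (1175 CPM at E14.5, against 417 CPM at E13.5) and Prg2, the eosinophil major basic protein, fell (0.385 CPM at E14.5, against 10.5 CPM at E13.5). The Prg2 call rests on few UMIs, as its E13.5 level in 113 cells is just over the 10 CPM minimum. Cd63, a granule membrane protein, had 2834 CPM in FL10 at E14.5 and 2879.7 CPM at E13.5. Hdc had 1586 CPM in FL10 at E14.5 and 2231 CPM at E13.5 and was not past 2-fold. Srgn, the proteoglycan core of granules, had 6252 CPM at E14.5 and 6209 CPM at E13.5.

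Of 16 genes listed for the chymase locus 15 were in the feature lists and 4 measured in FL10. Mcpt8 and Ctsg (cathepsin G, 396 CPM at E14.5, against 42.1 CPM at E13.5) rose there, and Gzmb, granzyme B, fell (37.6 CPM at E14.5, against 95.4 CPM at E13.5). In P12 Gzmb (543 CPM at E14.5, against 199.6 CPM at E13.5) and Ctsg (234 CPM at E14.5, against 94.9 CPM at E13.5) rose. Of 13 receptor and cytokine genes, 11 were measured in FL10 and 1 passed 2-fold: Il13 fell, with 59.7 CPM at E14.5, against 238 CPM at E13.5. In P12 Il13 also fell, just past 2-fold, with 384 CPM at E14.5, against 716 CPM at E13.5. Cd200r3 (975 CPM at E14.5 and 885 CPM at E13.5), Csf2rb (407 and 429 CPM at E14.5 and E13.5) and Csf1 (234 and 168 CPM at E14.5 and E13.5) did not pass in FL10. Over fetal liver, P12 was higher in Il6 (3.50 at E14.5, and past 2-fold at E13.5), in Il13 (2.86 at E14.5 and 1.97 at E13.5) and in Il4 (1.60 at E14.5 and 1.11 at E13.5). Of 19 transcription factor genes, 14 were measured in FL10 and none passed 2-fold between stages. Cebpb had 40.3 CPM in P12, against 1117 CPM in FL10, at E14.5, and 3.91 CPM in P12, against 819 CPM in FL10, at E13.5, fold changes of -4.36 at E14.5 and -6.12 at E13.5. Kit and gene list differ between these clusters too, and their part in the Cebpb values was not tested. In P12 between stages Cebpb rose (2.24). Runx1 had 548 CPM at E14.5 and 448 CPM at E13.5 in FL10, and Spi1 299 CPM at E14.5 and 382 CPM at E13.5. Of 10 eicosanoid genes, 5 were measured in FL10 and none passed 2-fold. Alox5ap, the partner of 5-lipoxygenase, had 2278 CPM at E14.5 and 1922 CPM at E13.5, and Alox5 itself 415 CPM at E14.5 and 539.5 CPM at E13.5. Pla2g4a, which frees arachidonic acid, had 92.8 CPM at E14.5 and 92.9 CPM at E13.5. The list medians between stages in FL10 ran from -0.13 (eicosanoid genes) to 1.43 (chymase locus), around the median of all measured genes set at 0.

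Genes whose levels over clusters were most like those of each gene were named by Pearson's r of log2(CPM + 5), over 17 fetal liver and 13 periphery clusters. In fetal liver these were Prss34 (r = 0.999), Ms4a2 (0.998) and Lilr4b (0.998) for Mcpt8, and Prss34 (0.999), Il6 (0.998) and Mcpt8 (0.998) for Ms4a2. Gata2 was most like Hist1h2ac (0.984), Stx3 (0.970) and Hgf (0.966), and Cpa3 most like Alox5 (0.965), Sema4a (0.932) and Perp (0.929). Fcer1a was most like Sucnr1, C3ar1 and Chst13, and Cma1 most like Sucnr1, Fcer1a and Gpc4, with r from 0.998 to 0.999. Hpgds was most like Ctnnd2 (0.925), Ctr9 (0.923) and Sp110 (0.913). Near genes needed 50 CPM in at least 1 cluster, which a gene can reach through the basophil-like cluster alone. With FL10 left out, r was 0.940 between Mcpt8 and Prss34, 0.01 between Fcer1a and Sucnr1 and -0.03 between Cma1 and Sucnr1, so the last pairs rest on that cluster. For Gata2 it was then 0.867 with Hist1h2ac, 0.780 with Stx3 and 0.689 with Hgf. Between Fcer1a and C3ar1 it was 0.459, and between Hpgds and Ctnnd2 it stayed at 0.921. Mcpt8 outside FL10 stood at 1.77 CPM at E14.5 and 0.104 CPM at E13.5, with 1.84 CPM in FL0 at E14.5. The r of 0.940 is thus over levels near the floor and cannot show likeness apart from FL10. In periphery Gata2 was most like Slc7a11 (0.998), Emilin2 and Gp49a, and Mcpt8 most like Il6 (0.998), Prss34 and Sucnr1. Without P12 the r of Mcpt8 was 0.914 with Il6, 0.840 with Prss34 and 0.778 with Sucnr1, and that of Gata2 with Slc7a11 0.991. Ms4a2 was most like Sucnr1 (0.9996), Prss34 and Muc20, and Fcer1a most like Ctsg (0.9997), Akr1c18 and Serpinb2, where r between Fcer1a and Ctsg was -0.16 without P12. Cma1 was most like Clec4n (0.980), Lyz2 and Cd14. That likeness is over P10 as 1 cluster: within it P10.6 held nearly all Cma1 UMIs but had 20.6 CPM of Lyz2 over both stages, against 5390.1 CPM in the sub-cluster P10.2, so Cma1 and Lyz2 were highest in different sub-clusters. Cpa3 was most like Lgals3 (0.969), Cela1 and Lpcat2. Hpgds was most like Fam213b (0.929), Wfdc17 and Clta. All clusters of a tissue share the same 2 libraries, and these values are descriptions.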

How the data were processed

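The authors deposited raw UMI counts, not normalized, in 1 matrix per library. Cell Ranger version 3 and mm10 are named in the submitters' processing notes, and the file headers give release 3.0.0 (fetal liver) or 3.0.1 (periphery). Here a barcode needed 500 genes or more, and no more than 10% of its UMIs from mitochondrial genes. Scrublet (scanpy 1.11.5) marked 3.13 to 8.05% of barcodes as doublets, by its own threshold in fetal liver at E14.5 and otherwise by score up to 0.8% per 1000 barcodes, and these were left out. UMIs were summed over kept cells and scaled to CPM. Cells of each tissue were clustered over both stages on 2000 variable genes without the 7, with Leiden (resolution 1) on a graph of 15 exact neighbours from 30 components, and levels in clusters other than the basophil-like ones hold for this clustering only. Clusters were named from fixed markers by a rule settled on the data, and clusters under 50 cells are given with their cell number. Intervals are exact 95% Poisson for CPM and Clopper-Pearson for shares. The interval of a fold change joins the extremes of both Poisson intervals. The 0 counts of Hpgds in P12 are given with the level that 3 counts would make. The exact Poisson upper limits there are 4.02 CPM at E14.5 and 3.61 CPM at E13.5. Other counts of 0 are given without such a level. The fold and call steps were tested on simulated counts with Poisson error only. That simulation had no variation between libraries, so it cannot show how often calls from 1 library per group would be false. Named genes were the 7 genes, the 3 nearest by correlation per gene and tissue, and per fixed list the 3 highest in the basophil-like cluster and up to 4 past 2-fold. The genes and lists were chosen with earlier results of these data known.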

Additional observations from a re-analysis of the deposited data

How the results depend on the processing

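No paired analysis was possible because each group had 1 library. Each of the 7 fold changes in 4 comparisons was recomputed under 12 alternatives. Of 156 recomputed values with a call, 154 stayed past 2-fold in the same direction and 0 reversed. Hpgds between stages in fetal liver was -0.99 with a pseudocount of 10 CPM, and Mcpt8 between tissues at E14.5 was 0.75 by the mean of per-cell CPM. That mean took Mcpt8 between stages in periphery to 1.30, and with no minimum CPM Cma1 between tissues at E13.5 reached 1.06. The cause of these moves was not tested. The numbers of genes called stayed within 1.5 times. The share of cells with at least 3 genes in fetal liver at E14.5 (6.48%) was 7.61% with doublets kept and 7.43% over every deposited barcode, and at E13.5 (1.23%) it was 1.99% at no more than 5% mitochondrial UMIs and 0.993% at 2 UMIs per gene. The share of all UMIs of the 7 genes held by the basophil-like cluster in fetal liver at E14.5 (92.1%) was 89.6% at resolution 2. The next alternatives were chosen after seeing the data. Leaving out the shallow clusters P13 and FL12 changed no call. Their cells weigh little in summed UMIs (Mcpt8 in periphery at E14.5 had 173 CPM without them, 178 CPM with them). The mean of per-cell CPM was not recomputed without them. Cma1 without its 3 richest cells per library stayed past 2-fold, at 1.42 between stages in periphery and 1.80 between tissues at E14.5. In periphery 6 cells at E14.5 and 2 at E13.5 had at least 10 Cma1 UMIs. This removal left such cells in at E14.5 and cannot show that the calls hold without them. Leaving out P10.6 was not run. Fcer1a in all libraries and Cma1 in fetal liver stayed under the 10 CPM minimum over all cells and were not called. Depth limits Cma1 within FL10 at E13.5, which rests on 10 UMIs.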
